A study of Mus musculus with 6 samples.

Results

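Tnf, Tnfrsf1a, Tnfrsf1b, Tlr2, Tlr4, Cd14, Il1rn, Il1r1, Nfkbia and Tnfaip3 encode a ligand, receptors, a receptor antagonist and feedback inhibitors of TNF, Toll-like receptor (TLR) and NF-kB signalling. These 10 genes were chosen by symbol from the 17460 entries of a liver RNA sequencing table, and all 10 passed the filter on low values. They were compared between 3 control livers and 3 Blnc1 LKO livers, which have a partial deletion of the long noncoding RNA Blnc1 in hepatocytes. The question was whether the mRNA levels of these genes differed, and the activity of the signalling was not measured. For none of the 10 genes did the test find a difference larger than the spread between livers. The fitted log2 changes ran from −0.24 for Il1rn to 0.12 for Tnf, and the groups overlapped for every gene.

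All 6 livers came from C57BL/6 mice of 9 months. The mice had been fed the NASH diet, a diet with fructose, trans fats and cholesterol, for 24 weeks. NASH is nonalcoholic steatohepatitis, a fatty liver with injury, inflammation and fibrosis. The LKO model was made in mice with a Cas9 transgene, in which an adenovirus delivered a pair of single-guide RNAs against Blnc1 to the liver. For the high-fat diet cohort of the study the control vector was a GFP adenovirus, and the vector of these NASH diet controls is not given separately in the sources used here. Adenovirus transduces hepatocytes, and non-parenchymal liver cells poorly, so the model lowers Blnc1 mainly in hepatocytes. The study reports a partial reduction of Blnc1, stronger in isolated hepatocytes than in whole liver, with little change in non-parenchymal cells. The table has 0 entries named Blnc1, and its loss was therefore not measured here. Libraries held 65384969 to 89350181 reads on listed genes, and 10 hepatocyte markers such as Alb and Apoa1 took 7.88% to 9.21% of them in each liver.

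TNF is a cytokine made mostly by activated macrophages, and it binds the receptors TNFR1 (Tnfrsf1a) and TNFR2 (Tnfrsf1b). TLR4 with its co-receptor CD14 senses bacterial lipopolysaccharide, and TLR2 senses bacterial lipoproteins. Together with the IL-1 receptor, these receptors lead to phosphorylation and loss of the inhibitor IkB-alpha (Nfkbia), which frees NF-kB to enter the nucleus. NF-kB then induces Nfkbia itself and Tnfaip3, which encodes the ubiquitin-editing enzyme A20, so that the response is limited by its own targets. In the liver the pathway is best known from Kupffer cells, the resident macrophages, but hepatocytes respond to TNF and IL-1 as well.

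Matches to the DNA motif that NF-kB binds are shown first, because several of the 10 genes are known as NF-kB targets. RefSeq promoter windows (GRCm38.p6), from 250 bases before to 50 bases after each gene start, were present for 8 of the 10 genes and were searched on both strands for the kB consensus, a motif of 10 bases. Windows of Nfkbia, Tnfaip3, Tlr2 and Il1r1 held it (4 of 8 genes), against 9.55% of 27025 genes with windows. At Tlr2 a further match overlapped the one that begins at base −172 and began at base −173. A match describes letters and not a site in use, and Tnf, Tnfrsf1a, Tnfrsf1b and Il1rn had no match in these windows. The genes not searched were Tlr4 and Cd14. The consensus was GGGRNNYYCC, where R is A or G, Y is C or T and N is any base. The motifs of Nfkbia and Il1r1 and that of Tnfaip3 at base −12 match it on the opposite strand, so their capitals show its reverse complement. Each line gives 30 bases along the strand of the gene, with the motif in capitals.
Nfkbia (chr12:55492657-55492686, − strand, upstream of the gene): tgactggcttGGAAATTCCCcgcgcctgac
Tnfaip3 (chr10:19015516-19015545, − strand, in an intron of GENCODE transcripts): gactcacgcgGGGACACCCCggggcgggac
Tnfaip3 (chr10:19015403-19015432, − strand, in an intron of GENCODE transcripts): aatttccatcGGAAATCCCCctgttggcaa
Tlr2 (chr3:83841761-83841790, − strand, motif upstream of the gene): aggacacctgGGGAATTCCCacacggagcc
Tlr2 (chr3:83841597-83841626, − strand, in an exon): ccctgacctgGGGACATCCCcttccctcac
Il1r1 (chr1:40266344-40266373, + strand, in an intron): cagggattttGGAATGCCCCcaaggagatg
The motif of Nfkbia began at base −29 from the RefSeq start, those of Tnfaip3 at −125 and −12, those of Tlr2 at −172 and −8, and that of Il1r1 at −232. The log2 changes of these 4 genes, given below, lay between −0.13 and 0.029.

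Values below are normalized reads, that is reads of a gene scaled by the size factor of its library, without correction for length. Differences are log2 fold changes of Blnc1 LKO against control on the log2(value + 1) scale, from limma across 17297 genes with Benjamini-Hochberg adjustment, and intervals are 95% intervals of that fit. Under this rule 0 of the 10 genes passed an adjusted p under 0.05, against 0.00578% of all genes tested. At an unadjusted p under 0.05 the count was again 0 of 10, against 5.68% of all genes. DESeq2 on the recovered reads called 0 of the 10, against 0.486% of all genes, and edgeR called 0, with 0 of 10 at an unadjusted p under 0.05 in both tools. For 0 of the 10 genes did the 3 Blnc1 LKO livers lie all above or all below the controls, against 10.6% of all genes. The median log2 fold change was −0.0070 over the 10 genes, of which 5 were higher and 5 lower, and −0.00099 over all genes. For 3 against 3 livers, exact permutation of the labels cannot reach a p below 0.1.

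**Figure D1:**
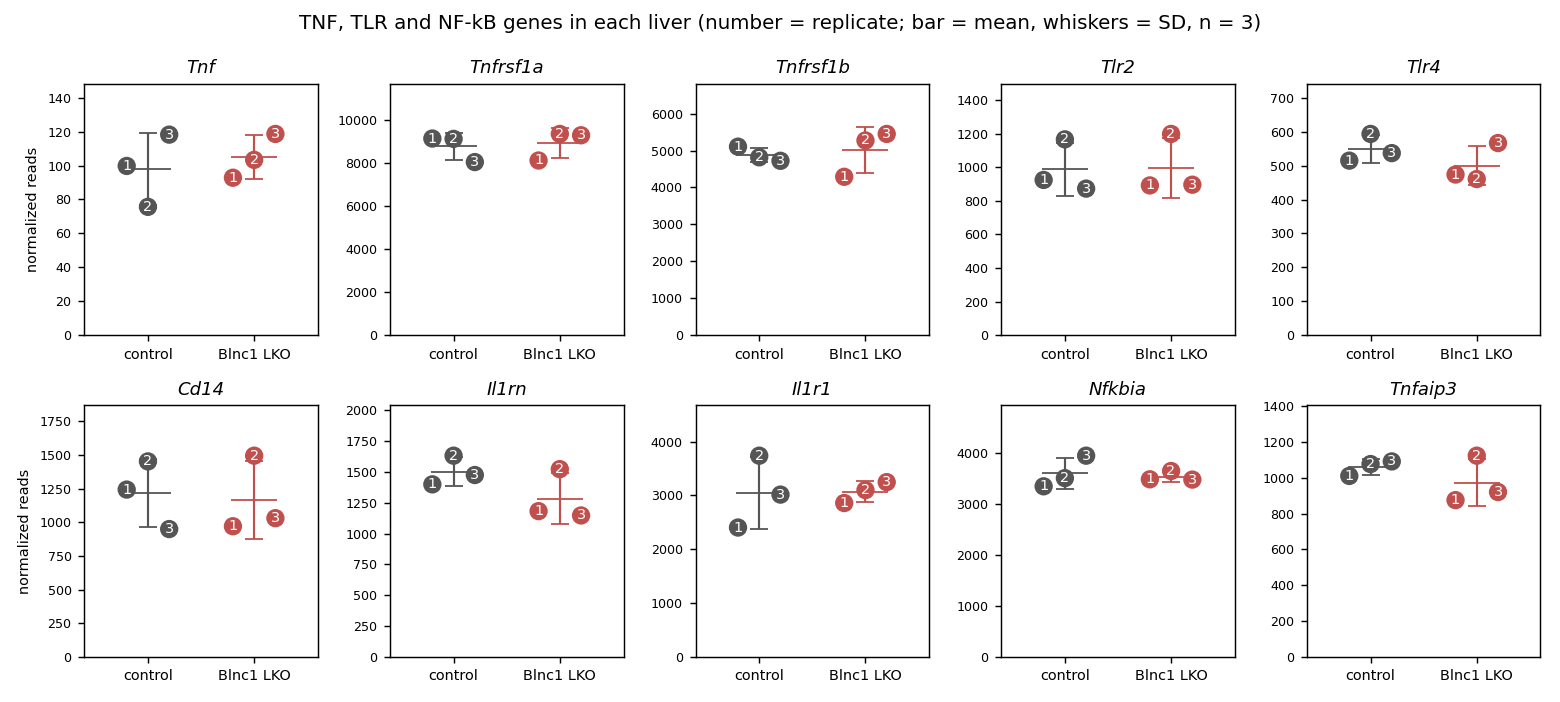
Normalized reads of the 10 genes (y axis, from 0, scaled per panel) in control (gray) and Blnc1 LKO (red) livers (x axis). Numbered points are the replicates, bars are means and whiskers SD of 3 livers. Groups overlap in every panel, and replicate 2 of both groups is high for Tlr2 and Cd14.

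Tnf, the ligand, was the gene with the fewest reads. It had normalized values of 99.8, 75.6 and 118 in the controls, against 92.8, 103 and 119 with Blnc1 LKO. The lowest and the second highest value were both in control livers, so the groups overlapped fully. The means were 97.9 ± 21.4 and 105 ± 13.0 (SD of 3 livers), and the fitted log2 change was 0.12 (standard error, SE, 0.20, adjusted p = 0.984, limma). The interval reached from 0.790 to 1.49 times the control level, the widest of the 10 genes. Only 71 to 142 reads fell on Tnf per liver, which gives a counting error of 9.85%, and the coefficient of variation over the 6 livers was 16.0%. A change of Tnf within this interval is not excluded at this depth and number of livers. Tnf lies on chromosome 17 (GRCm38, 35199381 to 35202007, − strand).

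Tnfrsf1a encodes TNFR1, the death domain receptor present on most cells, and had the highest value of the group. Control livers had 9132, 9115 and 8039 normalized reads and Blnc1 LKO livers 8112, 9346 and 9283. In each group a single liver, control replicate 3 and Blnc1 LKO replicate 1, lay well below the others. The means were 8762 ± 627 and 8914 ± 695 (SD of 3 livers), and the fitted log2 change was 0.024 (SE 0.077, adjusted p = 0.993, limma). The interval was narrow, from 0.901 to 1.15 times control. Tnfrsf1a lies on chromosome 6 (GRCm38, 125349362 to 125362484, + strand).

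Tnfrsf1b encodes TNFR2, which lacks a death domain and is most abundant on leukocytes and endothelial cells. Its values were 5105, 4817 and 4722 in the controls, against 4289, 5273 and 5450.0 with Blnc1 LKO. The Blnc1 LKO livers enclosed the controls on both sides, and their SD of 625 was larger than the control SD of 199 (n = 3 each). The fitted log2 change was 0.029 (SE 0.090, adjusted p = 0.993, limma), with an interval from 0.885 to 1.18 times control. Tnfrsf1b lies on chromosome 4 (GRCm38, 145213463 to 145246870, − strand). Within a liver, the ratio of Tnfrsf1b to Tnfrsf1a reads stayed between 0.528 and 0.587, with means of 0.558 ± 0.0295 for controls and 0.560 ± 0.0294 with Blnc1 LKO (SD of 3 livers). This ratio was chosen after its values were seen and was not tested.

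Tlr2, the receptor for bacterial lipoproteins, had 924, 1166 and 872 normalized reads in the controls, against 891, 1198 and 896 with Blnc1 LKO. Replicate 2 stood highest in each group, and the other 4 lay between 872 and 924. The means of 987 ± 157 and 995 ± 176 (SD of 3 livers) gave a log2 fold change of 0.0086 (SE 0.14, adjusted p = 0.9998, limma), the smallest of the 10 genes. The interval still allowed 0.802 to 1.26 times the control level. Tlr2 lies on chromosome 3 (GRCm38, 83836272 to 83841767, − strand).

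Tlr4, the lipopolysaccharide receptor, was low, with 398 to 678 reads per liver. Its normalized values were 515, 593 and 537 in the controls, against 474, 460.4 and 566 with Blnc1 LKO. A pair of Blnc1 LKO livers lay below every control liver, and replicate 3 lay between control values. The means were 548 ± 40.6 and 500.2 ± 57.8 (SD of 3 livers), and the fitted log2 change was −0.14 (SE 0.11, adjusted p = 0.971, limma), with an interval from 0.769 to 1.08 times control. The log2 change was −0.23 without Blnc1 LKO replicate 3 and −0.078 without control replicate 2. Tlr4 lies on chromosome 4 (GRCm38, 66827584 to 66930284, + strand).

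Cd14 encodes the co-receptor that hands lipopolysaccharide to TLR4, and it varied most between livers. Values were 1244, 1453 and 950.1 in the controls, against 971, 1496 and 1031 with Blnc1 LKO. The highest and the lowest control liver differed by more than the group means did, which were 1216 ± 253 and 1166 ± 287 (SD of 3 livers). Over the 6 livers the coefficient of variation was 20.4%, against a counting error of 2.88%. The fitted log2 change was −0.066 (SE 0.19, adjusted p = 0.993, limma), and the interval was wide, from 0.708 to 1.29 times control. Cd14 lies on chromosome 18 (GRCm38, 36725067 to 36726798, − strand).

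Il1rn encodes the IL-1 receptor antagonist, which occupies the IL-1 receptor without signalling. It had 1400.4, 1633 and 1476 normalized reads in the controls, against 1183, 1524 and 1148 with Blnc1 LKO. Replicates 1 and 3 of the Blnc1 LKO livers lay below every control liver, whereas replicate 2 lay between control values. The means were 1503 ± 119 and 1285 ± 208 (SD of 3 livers), a ratio of 0.855. The log2 fold change of −0.24 (SE 0.11) was the largest in size of the group and did not pass (unadjusted p = 0.0698, adjusted p = 0.891, limma). Its interval ran from 0.710 to 1.02 times control. With single livers left out, the log2 fold change lay between −0.36 without Blnc1 LKO replicate 2 (adjusted p = 0.231, limma) and −0.16 without Blnc1 LKO replicate 3 (adjusted p = 0.922). Il1rn lies on chromosome 2 (GRCm38, 24336853 to 24351494, + strand).

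Il1r1 encodes the signalling receptor for IL-1 that the antagonist blocks. Control livers had 2403, 3737 and 3014 normalized reads and Blnc1 LKO livers 2857, 3098 and 3246. All 3 Blnc1 LKO livers lay inside the control range. The means were 3051 ± 668 and 3067 ± 196 (SD of 3 livers), and the fitted log2 change was 0.029 (SE 0.14, adjusted p = 0.999, limma), with an interval from 0.818 to 1.27 times control. Il1r1 lies on chromosome 1 (GRCm38, 40225080 to 40317257, + strand).

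Nfkbia, the IkB-alpha gene and an NF-kB target, was the steadiest of the 10 genes. Values were 3353, 3514 and 3955 in the controls, against 3490.5, 3654 and 3485 with Blnc1 LKO. The Blnc1 LKO livers lay close together within the control range, and the coefficient of variation over all 6 livers was 5.85%. The means were 3607 ± 312 and 3543 ± 96.0 (SD of 3 livers), and the fitted log2 change was −0.023 (SE 0.069, adjusted p = 0.993, limma). The interval, from 0.883 to 1.10 times control, was the narrowest in the group. Nfkbia lies on chromosome 12 (GRCm38, 55489410 to 55492647, − strand).

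Tnfaip3, the A20 gene and also an NF-kB target, had 1009.7, 1076 and 1090.7 normalized reads in the controls, against 875, 1123 and 919.9 with Blnc1 LKO. As for Il1rn, replicates 1 and 3 of the Blnc1 LKO livers lay below every control liver, whereas replicate 2 lay above them all. The means were 1059 ± 43.1 and 972 ± 132 (SD of 3 livers), and the fitted log2 change was −0.13 (SE 0.099, adjusted p = 0.969, limma), with an interval from 0.781 to 1.07 times control. The log2 change was −0.24 without Blnc1 LKO replicate 2 (adjusted p = 0.337, limma) and −0.058 without Blnc1 LKO replicate 1 (adjusted p = 0.978). Tnfaip3 lies on chromosome 10 (GRCm38, 19000910 to 19015657, − strand).

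**Figure D2:**
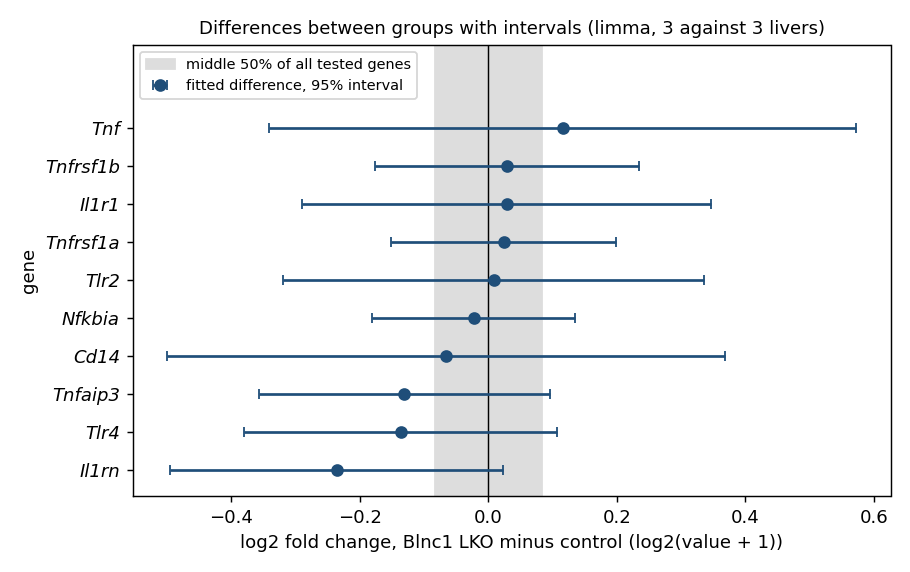
Log2 fold change of Blnc1 LKO against control (x axis, log2(value + 1) scale) for the 10 genes (y axis), as points with 95% intervals from limma with 3 livers a group. The gray band is the middle 50% of all tested genes, from −0.083 to 0.083. Every interval includes 0, and that of Il1rn ends nearest to it, at 0.024.

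Levels of different genes were compared as RPKM, reads per kilobase of GENCODE exon, scaled to a common library total. Tnfrsf1a stood highest at 45.9 ± 4.06 RPKM (SD over 6 livers), followed by Nfkbia at 29.9 ± 2.04 and Tnfrsf1b at 17.4 ± 1.83. None of these 3 genes overlapped a neighbour in the order in any liver. Cd14 followed at 9.27 ± 2.10 RPKM, Il1r1 at 6.47 ± 0.980, Tlr2 at 4.43 ± 0.765 and Il1rn at 3.39 ± 0.528. The ranges of neighbours among these 4 overlapped across livers, but within each single liver the 4 stood in this order. The lowest were Tnfaip3 at 1.89 ± 0.228 RPKM, Tlr4 at 1.27 ± 0.128 and Tnf at 0.832 ± 0.137, whose ranges were separate. The TNF receptors were thus far above their ligand at the mRNA level, and the order was the same in the means of both groups. Exon length counts every annotated exon, which lowers the RPKM of a gene with rarely used exons.

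**Figure D3:**
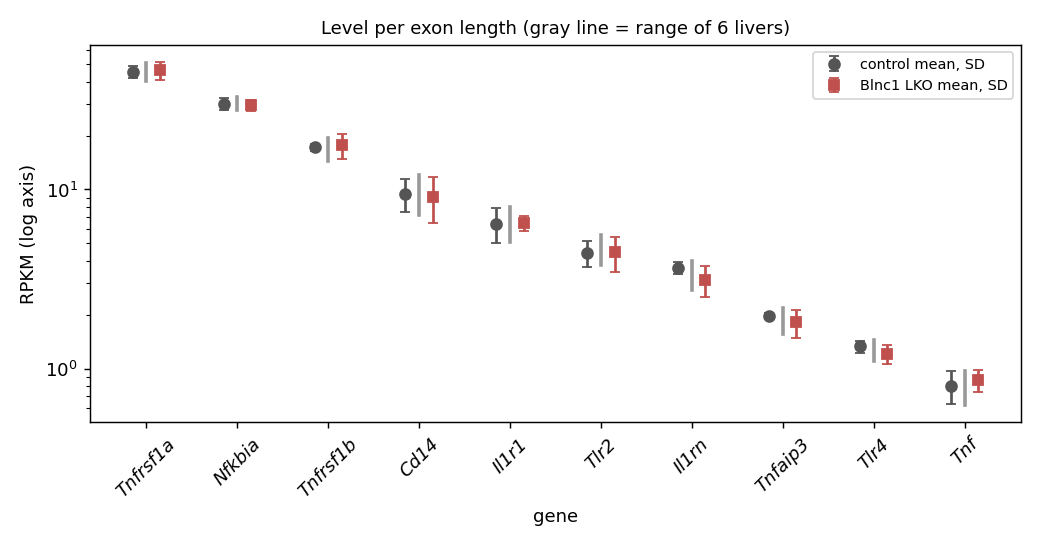
Level per exon length in RPKM (y axis, log scale) of the 10 genes (x axis), ordered by mean. Circles and squares are means of control and Blnc1 LKO livers with SD (n = 3), and gray lines span the 6 livers. Levels fall from 45.9 RPKM for Tnfrsf1a to 0.832 RPKM for Tnf.

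The highest of the 6 livers was 1.16 times the lowest for Tnfrsf1a and 1.57 times the lowest for Cd14, with the other genes in between. Over the 6 livers, the coefficient of variation ran from 5.85% for Nfkbia to 20.4% for Cd14, while the counting error was at most 4.34% for every gene but Tnf. Blnc1 LKO replicate 1 lay below the 6-liver mean for all 10 genes, on the log2 scale, with a median deviation of −0.14. That liver was low for lists read below as well, with median deviations from the control mean of −0.21 for NF-kB targets and −0.29 for monocyte-derived macrophage markers. The median deviations were −0.47 for neutrophil, −0.18 for stellate cell, −0.17 for cholangiocyte and −0.15 for sinusoidal endothelial markers. Kupffer cell and macrophage (0.027), lymphocyte (0.089) and hepatocyte markers (0.18) lay above the control mean there. Blnc1 LKO replicate 2 lay above the 6-liver mean for 9 of the 10 genes and was the highest liver for 4 of them. Tlr4 was the exception, with its lowest value in that liver. Control replicate 2 was above the mean for 7 genes, with the highest values of Tlr4, Il1rn and Il1r1, but it had the lowest value of Tnf.

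Some of the 10 genes moved together from liver to liver. Tlr2 and Cd14 ranked the 6 livers in the same order (Pearson r = 0.93 of log2 values, Spearman rho = 1), and the ratio of Cd14 to Tlr2 reads lay between 1.09 and 1.35. Il1rn and Tnfaip3 had r = 0.92 (rho = 0.77), and Tnfrsf1a and Tnfrsf1b had r = 0.84 (rho = 0.89). These were the 3 of 45 pairs with r above 0.8. At the other end Tnf had the lowest r, with Tlr2 (r = −0.57) and Cd14 (r = −0.56), but the rank correlation was weaker (rho = −0.31 for both). These correlations describe 6 livers, in each of which the genes share a library, its scaling and its cell makeup, and the correlations and the ratio, chosen after their values were seen, were not tested.

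Among the 169 other genes of the pathway and marker lists with a mean of at least 1 CPM, reads scaled to a common library total, the gene most like each of the 10 was taken by Pearson correlation over the 6 livers. Cd14 was most like Tnip2 (r = 0.97), an A20-binding inhibitor of NF-kB. Tnfrsf1b was most like Unc93b1 (r = 0.97), the chaperone of endosomal TLRs, and ranked the livers in the same order. Tlr2 was most like Zc3h12a (r = 0.95), a ribonuclease that degrades cytokine mRNAs, and Tlr4 was most like Nfkbiz (r = 0.92). Il1rn and Tnfaip3 were both most like Dcn, a stellate cell and fibroblast matrix gene (r = 0.96 and 0.94). Nfkbia was most like Sox9 (r = 0.94), a cholangiocyte marker. Tnf, Il1r1 and Tnfrsf1a were most like Rel (r = 0.85), Tirap (r = 0.86) and Il18rap (r = 0.96). These likenesses are descriptions over 6 livers, and no p is given.

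**Figure D4:**
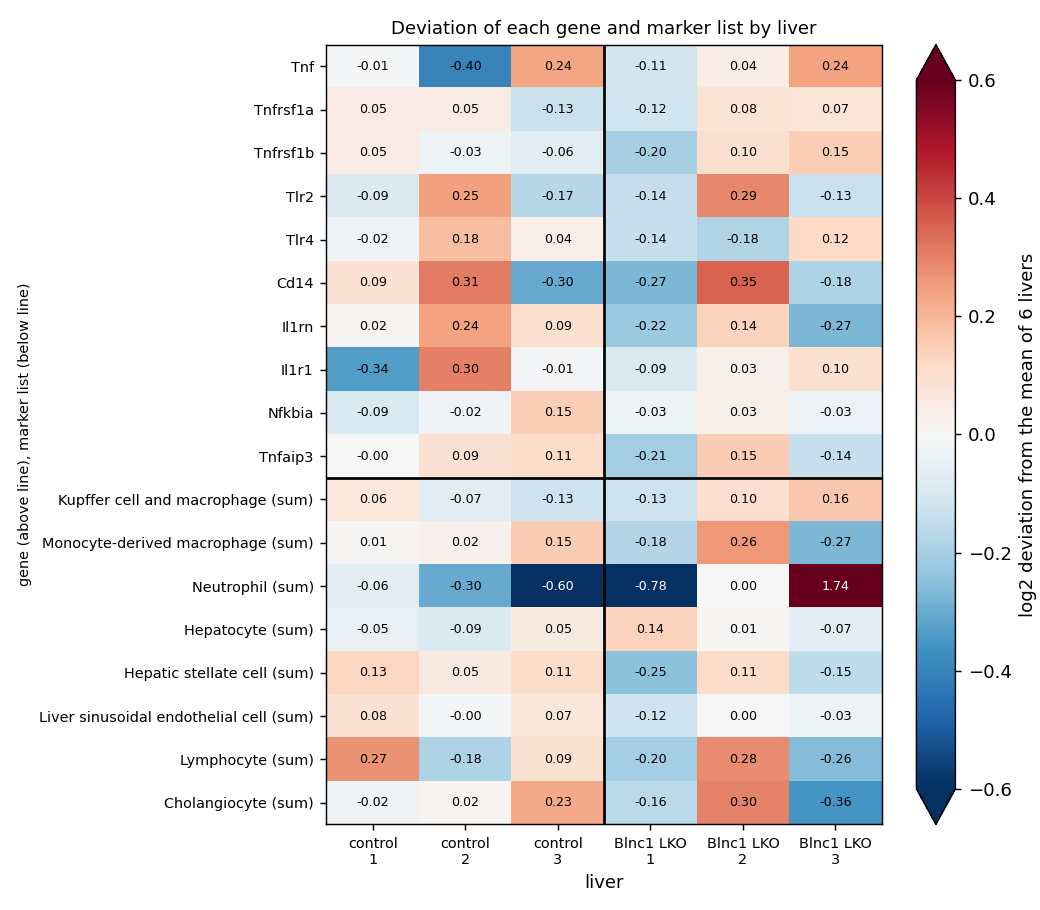
Log2 deviation from the mean of 6 livers (color, numbers in cells) for the 10 genes (above the line) and for summed CPM of 8 marker lists (below the line), with livers in columns. Blnc1 LKO replicate 1 is below the mean for all 10 genes, and Blnc1 LKO replicate 3 stands out for neutrophil markers. Colors end at 0.6 in either direction. Spp1 is in both the monocyte-derived macrophage and the cholangiocyte sum.

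Most of the 10 genes are expressed by macrophages and neutrophils, and their markers were read in the same livers. The summed level of 12 Kupffer cell and macrophage markers was 1176 to 1338 CPM in control and 1174 to 1434 in Blnc1 LKO livers. Of these 12, 8 were higher in the Blnc1 LKO group and 4 (Cd68, C1qa, C1qb and C1qc) were lower. Among the 8 higher ones, 5 (Adgre1, Clec4f, Vsig4, Timd4 and Marco) had an unadjusted p under 0.05. Of the 12, 0 passed the adjustment (limma, and 0 in DESeq2). For 9 markers of monocyte-derived macrophages, the sums were 1392 to 1537 and 1148 to 1656, with 6 of 9 lower. Of these 9, 3 (Ccr2, Cx3cr1 and Gpnmb) had an unadjusted p under 0.05, all of them lower. Over all genes, 5.68% had an unadjusted p under 0.05. None of the markers was at 0 in any liver. In whole liver, fewer cells of a type and less RNA per cell cannot be told apart.

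Neutrophil markers set a single liver apart. The sum of 7 markers such as S100a8 and S100a9 was 16.4 to 23.8 CPM in control livers, 14.5 and 24.9 in Blnc1 LKO replicates 1 and 2, and 83.2 in Blnc1 LKO replicate 3. In that liver 5 of the 10 genes were above and 5 below their 6-liver means, from a log2 deviation of 0.24 for Tnf and 0.15 for Tnfrsf1b, each with its highest value there, to −0.18 for Cd14 and −0.27 for Il1rn. Without it 0 of the 10 genes passed, at an unadjusted p under 0.05 as well, and their median log2 fold change was −0.012. The sums of 10 stellate cell markers were 1494 to 1575 in control and 1214 to 1555 in Blnc1 LKO livers. Of these 10 markers, 3 were lower and 1 higher at an unadjusted p under 0.05, against 5.68% of all genes. By limma's adjusted p 0 passed, and DESeq2 called 3, against 0.486% of all genes. Of the 10 hepatocyte markers, 7 were higher and 3 lower, and 2 were higher without overlap, against 10.6% of all genes in either direction. Here 0 passed limma's adjusted p and 1 was called by DESeq2. The sums of 9 sinusoidal endothelial markers were 443 to 472 and 408 to 446. Of these 9, 4 were lower at an unadjusted p under 0.05, against 5.68% of all genes, and 0 were called by either tool. Lymphocyte markers ranged from 20.2 to 29.4 and cholangiocyte markers from 659 to 1035 over all livers. The gene Spp1, with a mean of 782 CPM, is in both the cholangiocyte and the monocyte-derived macrophage list. It makes up most of the cholangiocyte sum and a large part of the macrophage sum, so these sums are not separate. The part of these cell types in the values of the 10 genes was not tested.

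The wider pathway was read from 8 lists with 115 genes in all, of which 113 were listed and passed the filter. By limma's adjusted p, 0 of them passed 0.05, and edgeR and DESeq2 called 0. Of the 113 genes, 7 had an unadjusted p under 0.05 (1 higher, 6 lower), a share of 6.19% against the 5.68% of all genes. Groups did not overlap for 9 genes, or 7.96%, against 10.6% of all genes. Of the 113 genes, 48 were higher and 65 lower, and the median log2 fold change was −0.016.

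In the list of TNF ligands and receptors, 6 of 12 genes were higher and 6 lower. Tnfrsf12a, the receptor of the TNF-related ligand TWEAK, averaged 1649 ± 151 in the controls against 1227 ± 343 with Blnc1 LKO (SD of 3 livers), with a log2 fold change of −0.46 (adjusted p = 0.840, limma). Tnfrsf14, the receptor HVEM, had a log2 fold change of 0.16 and non-overlapping groups (adjusted p = 0.951, limma). Among 18 adaptors and kinases of the TNF receptors, 11 were higher. Tab3, a subunit of the TAK1 kinase complex, had the only unadjusted p under 0.05 with a higher level in Blnc1 LKO livers, at 798 ± 37.9 against 917 ± 64.4 (SD, n = 3 each, log2 fold change 0.20, adjusted p = 0.851, limma). Rnf31, a ubiquitin ligase of the linear chain assembly complex, had a log2 fold change of 0.074 (adjusted p = 0.973, limma).

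Among 19 Toll-like receptors and accessory proteins, 7 were higher and 12 lower, and 0 had an unadjusted p under 0.05. Tlr9, the endosomal DNA receptor, had log2 fold change −0.36 (adjusted p = 0.930, limma), and Lbp, the lipopolysaccharide-binding protein made by hepatocytes, had −0.12 (adjusted p = 0.968). The 12 adaptors of TLRs and IL-1 receptors included Peli2, a ubiquitin ligase, at 0.20 (adjusted p = 0.892, limma), and Irak3, an inhibitory kinase homologue of macrophages, at 0.27 (adjusted p = 0.944). In the IL-1 family, Il33, an alarmin released by damaged cells, had all Blnc1 LKO livers below all controls, with means of 640 ± 50.6 and 518 ± 39.8 (SD of 3 livers). Its log2 fold change was −0.30 (adjusted p = 0.781, limma). Il18, a cytokine processed by the inflammasome, was higher without overlap, at a log2 fold change of 0.18 (adjusted p = 0.899, limma).

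Over 10 subunits of NF-kB and its kinases, log2 fold changes ran from −0.18 to 0.12, and 0 had an unadjusted p under 0.05. Nfkb2, which encodes p100, stood at the lower end (adjusted p = 0.939, limma), and Ikbke, a kinase related to TBK1, at 0.11 (adjusted p = 0.930). Among 16 IkB proteins and inhibitors, 4 were higher and 12 lower, between −0.18 and 0.12. Otulin, which cleaves linear ubiquitin chains, was higher in all Blnc1 LKO livers with log2 fold change 0.12 (adjusted p = 0.919, limma), and Nfkbiz, an atypical nuclear IkB protein, was at −0.12 (adjusted p = 0.973).

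The NF-kB target list had the lowest median, −0.065, with 8 of 25 genes higher and 17 lower. It includes Tnf, Nfkbia and Tnfaip3, so it is not separate from the genes above. In it, 4 genes had an unadjusted p under 0.05, against 5.68% of all genes, and all 4 were lower. Ccl2, the monocyte-attracting chemokine, had 467, 512 and 509 normalized reads in the controls, against 388, 427 and 373 with Blnc1 LKO, without overlap. Its fitted log2 change was −0.33 (SE 0.093, adjusted p = 0.714, limma). Ccl5, a chemokine of T cells and natural killer cells, had a log2 fold change of −0.70 with overlapping groups (adjusted p = 0.831, limma). The other two, Ptgs2 and Cxcl10, named after their values were seen, had log2 fold changes of −0.73 and −0.18 (adjusted p = 0.840 each, limma), both without overlap. Ptgs2 encodes cyclooxygenase 2 and had only 14 to 36 reads per liver, and Cxcl10 is a chemokine induced by interferons.

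**Figure D5:**
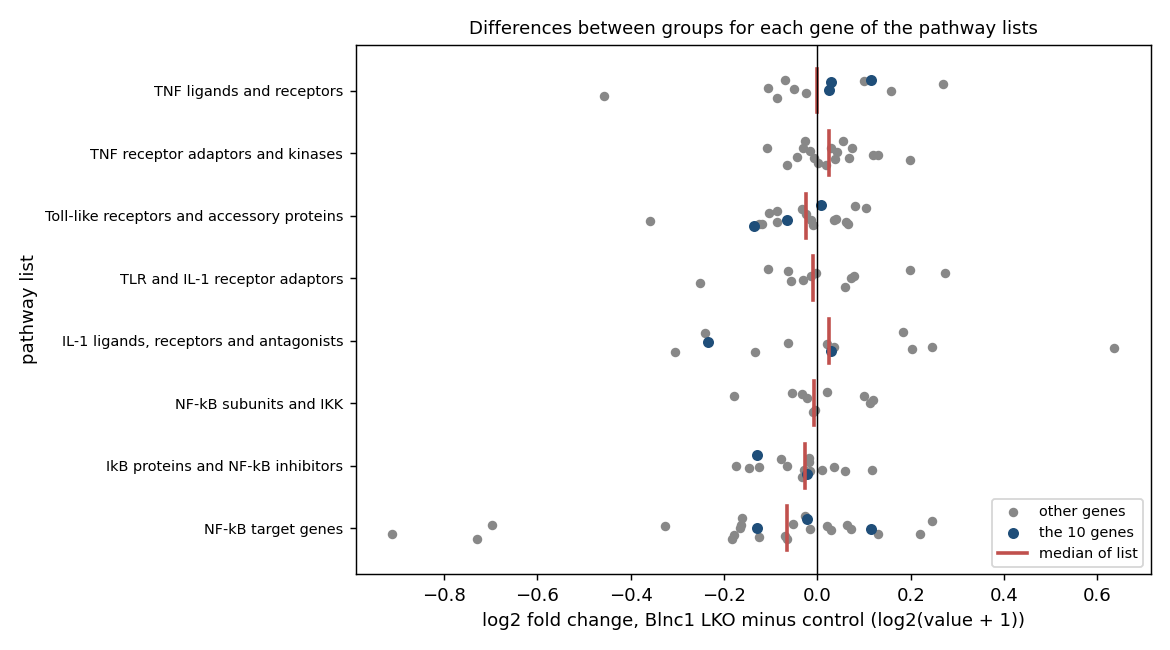
Log2 fold change of Blnc1 LKO against control (x axis, log2(value + 1) scale) for each tested gene of 8 pathway lists (y axis). Blue points are the 10 genes, gray points other genes, and red lines the list medians, which lie between −0.065 and 0.024. A gene in 2 lists is drawn in both, and vertical scatter within a list has no meaning.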

How the data were processed

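The authors sequenced libraries of 6 livers, made from RNA enriched for polyA tails. STAR (alignment to mm10), HTSeq (gene counting) and DESeq2 were their tools. Versions, annotation and any filter are not given in the sources used here. The deposited signal is a gene's read number scaled by the size factor of its library. Columns named for wild-type and knockout livers were matched to control and Blnc1 LKO livers of the same number.

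Because 100% of values became whole reads (within 0.01) once scaling was undone, reads were recovered. The differential test used limma 3.58.1 in R 4.3.3 (lmFit, eBayes with trend) on log2(value + 1), without covariates, for 17297 genes that reached 1 in 3 or more livers. P-values were adjusted by Benjamini-Hochberg over all genes, with a threshold of 0.05. edgeR 4.0.16 (quasi-likelihood) and DESeq2 1.42.0 on recovered reads were alternatives. The test was tested on simulated data: of 200 genes given log2 changes of 1.5 among 17297, limma found 98.5%. In these data limma also called 16 unchanged genes, edgeR 21 and DESeq2 43. The recovery holds for changes of 1.5 only. How often changes of the fitted size, from −0.24 for Il1rn to 0.12 for Tnf, would be found was not tested. Replicate pairs differed beyond counting noise (chi-square per degree of freedom 20.8 to 70.0). The labels number the livers without naming mice, so p-values set the group difference against the spread between these livers.

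The 10 genes and all lists were chosen with earlier results of these data known. Genes named from a pathway list are those past the threshold or, where none passed, the 2 other genes of smallest p with a mean of at least 1 CPM. Coordinates and exon lengths are from GENCODE M21 (GRCm38, the build of mm10), and no other GENCODE gene shares exon bases with the 10 genes. Promoter sequences are from RefSeq.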

Additional observations from a re-analysis of the deposited data

How the results depend on the processing

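With 15 alternatives, none of the 10 genes passed an adjusted p under 0.05 in any, and the lowest adjusted p was 0.231, for Il1rn without Blnc1 LKO replicate 2. Of 150 recomputed log2 fold changes, 135 kept their direction and 15 reversed, all 15 with a liver left out. Leaving out single livers moved the log2 fold change from −0.056 to 0.26 for Tnf, −0.037 to 0.091 for Tnfrsf1a, −0.037 to 0.14 for Tnfrsf1b, −0.13 to 0.13 for Tlr2, −0.26 to 0.074 for Cd14, −0.13 to 0.19 for Il1r1 and −0.074 to 0.046 for Nfkbia. Tlr4, Il1rn and Tnfaip3 kept their direction in all 15 alternatives, but with single livers left out their values ran from −0.23 to −0.078, −0.36 to −0.16 and −0.24 to −0.058.

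The count of the 10 genes at an unadjusted p under 0.05 was 1 (Il1rn) with the replicate block in limma and 1 in DESeq2 with the replicate block, and 0 to 2 with a liver left out (1, Tnfrsf1b, without Blnc1 LKO replicate 1, and 2, Il1rn and Tnfaip3, without Blnc1 LKO replicate 2). For the pathway genes this count was 4 in DESeq2 with the replicate block and 4 to 13 with a liver left out, the lowest without control replicate 1 and the highest without Blnc1 LKO replicate 2. The share of all genes at an unadjusted p under 0.05 was not computed for these alternatives. These counts therefore have no background beside them and are not read as results about these genes. Over all genes, the count past the threshold was 2 without a filter, 0 with the replicate block in limma, 2 in edgeR, 84 in DESeq2, 64 in DESeq2 with the replicate block, and 0 to 13 with a liver left out (0 without control replicate 1, 13 without Blnc1 LKO replicate 2). The cause was not tested. Replicate numbers gave no sign of pairing the livers: correlations of deviations from the group means were −0.052, 0.021 and −0.17 for the same numbers. Whether single genes follow a pairing was not tested. Depth limits Tnf most, at 71 to 142 reads per liver.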
